A study of Drosophila melanogaster with 6 samples.

Results

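The genes described here are a set of 10 heat shock proteins and chaperones of Drosophila melanogaster, namely Hsp22, Hsp23, Hsp26, Hsp27, Hsp67Bc, Hsp68, Hsp83, Hsc70-3, Hsc70-4 and DnaJ-1. A gene was followed where a probe set of the array carried its symbol and no other. Of the 10 genes, 6 met this rule, each with 1 probe set: Hsp26, Hsp27, Hsp68, Hsc70-3, Hsc70-4 and DnaJ-1. In all, 11981 genes had a probe set of their own, among 18769 probe sets that are not controls. All 6 chaperone probe sets had a present call on all 6 arrays. Hsp22 was represented by 2 probe sets that it shares with its neighbour CG4456, so no level was taken for it, and Hsp23, Hsp67Bc and Hsp83 were not analysed here.

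RNA came from 3 batches of embryos of 6xbcd mothers and 3 batches of embryos of 2xbcd mothers, with 1 array per batch. The 6xbcd embryos came from bcd+t8 females crossed with TT16 males, and the 2xbcd embryos from TT16 females crossed with TT16 males, so both groups had fathers of the same line. The mothers' stock and their number of bicoid (bcd) copies, 6 or 2, therefore changed together. Each batch pooled more than 100 whole dechorionated embryos, laid over 90 min and kept for 8 h at 25 degrees, which the labels place at stages 12 to 13. In pooled whole embryos, fewer cells that express a gene and less of its RNA per cell cannot be told apart.

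Chaperones hold unfolded proteins in solution and help them to fold, and heat shock raises many of them through the transcription factor Hsf. Small heat shock proteins bind unfolding proteins without using ATP, the Hsp70 family folds them in cycles of ATP hydrolysis, and DnaJ proteins bring substrates to Hsp70 and start its ATPase. In flies several of these genes are also active without heat: Hsp26 and Hsp27 are transcribed in the nurse cells of the ovary and loaded into the egg, and the Hsc70 genes are expressed constitutively.

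The groups could be told apart by bcd itself, whose signal was 2335, 1497 and 1375 on the 6xbcd arrays, against 861, 546 and 301 on the 2xbcd arrays. Present calls numbered from 9934 to 10474 per 6xbcd array and from 9697 to 10311 per 2xbcd array. The first principal component of the tested probe sets, called the main axis below, held 53.5% of the variance. Its scores were -21.4, 6.87 and -21.6 for 6xbcd arrays, against -22.3, 19.1 and 39.4 for 2xbcd arrays. The groups overlapped on it: 2xbcd replicate 3 had the highest score, followed by 2xbcd replicate 2 and 6xbcd replicate 2, and the other 3 arrays lay close together. Whole-embryo tissue markers were detected, among them elav and repo of the nervous system, srp of blood cells, btl of the trachea and Tm2 of muscle, each called present on all 6 arrays. Of 13 eggshell and yolk genes, which mark the mother's follicle cells and fat body, 1 present call was made in 78.

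Over all 10137 probe sets tested with limma, 1.32% were called at an adjusted p of 0.05 (0.75% higher and 0.572% lower in 6xbcd embryos), and of the 6 chaperone probe sets 0 were. At an unadjusted p of 0.05 there was 1 of 6, Hsp26, against 14.9% of tested probe sets. The log2 change, 6xbcd minus 2xbcd on the scale of log2(signal + 16), was positive for 5 of 6, against 52.7% of tested probe sets. Its median was 0.20 over the 6 probe sets and 0.01 over all tested ones. The change was positive in all 3 pairs of same-numbered arrays for 3 of 6, namely Hsp26, Hsp68 and DnaJ-1, against 19.7% of tested probe sets. Each probe set is scaled by its own probes, so levels are compared only within a gene.

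**Figure D1:**
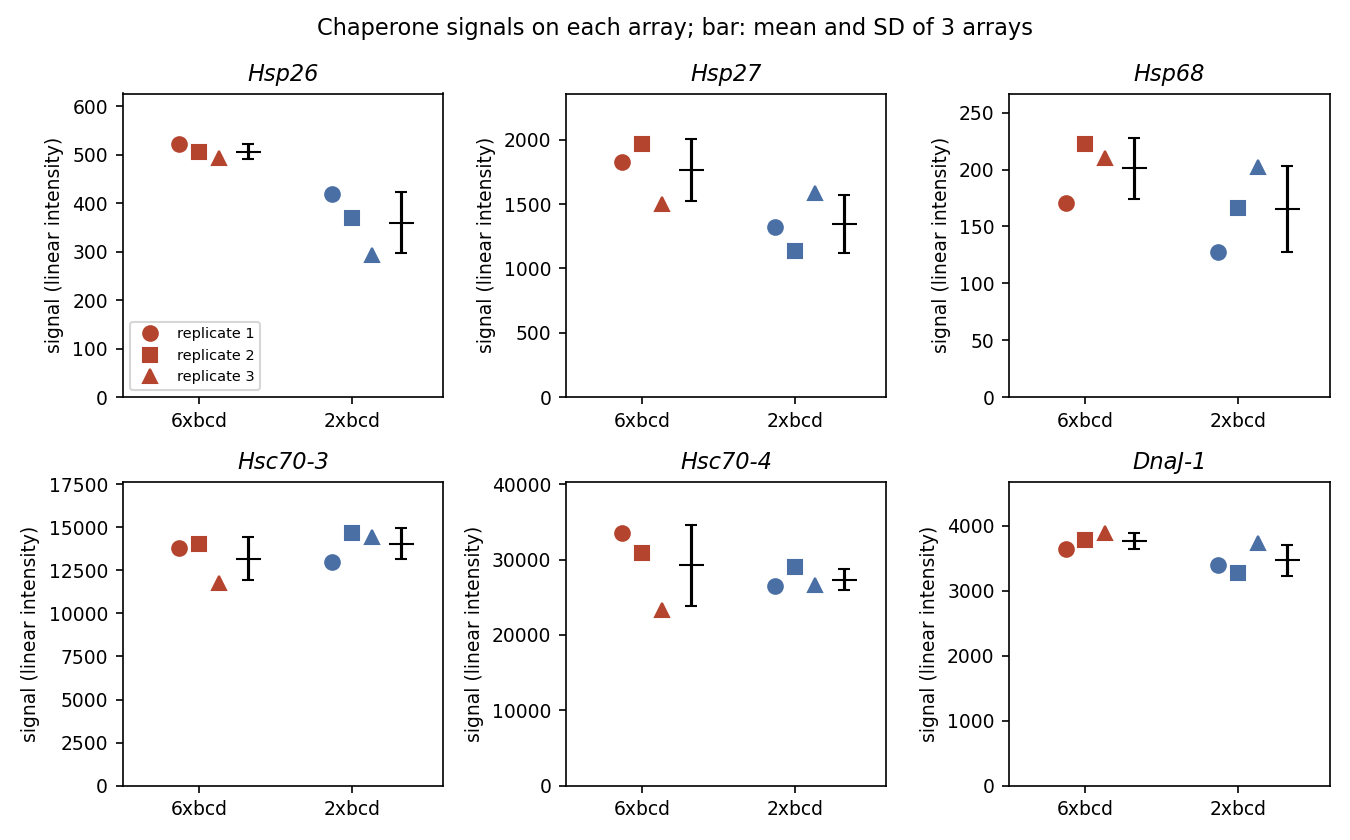
Signal (linear intensity, vertical axis from 0) of each chaperone gene on the 3 arrays of 6xbcd and the 3 of 2xbcd embryos; markers show the replicate number and the black bar the mean with its SD (n = 3). The 6xbcd arrays of Hsp26 lie between 493 and 522, above all its 2xbcd arrays, while the groups overlap for the other 5 genes.

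Hsp26, a small heat shock protein of the cluster on chromosome arm 3L, had the largest difference of the 6 in the paired fit of all arrays, though not in every fit: without pair 3 its log2 change was 0.37, against 0.62 for Hsp27. Its signal was 522, 506 and 493 in 6xbcd embryos, against 419, 370 and 293 in 2xbcd embryos. Every 6xbcd array was thus above every 2xbcd array, which was so for 7.38% of tested probe sets, and the 6xbcd values lay closer together. Hsp26 averaged 507 ± 14.8 in 6xbcd embryos, against 360 ± 63.4 in 2xbcd embryos (SD, n = 3 each), a ratio of 1.41. The estimated log2 change was 0.49 (SE 0.119, 95% interval 0.19 to 0.78) and did not pass over all probe sets (limma adjusted p = 0.167). A change of this size or larger, in either direction, was found in 9.05% of tested probe sets. In pairs 1, 2 and 3 the log2 differences were 0.31, 0.44 and 0.72, so the pair with 2xbcd replicate 3 contributed the most. With arrays compared without pairs, the log2 change was 0.35 without 2xbcd replicate 3 and 0.27 without 2xbcd replicates 2 and 3 (limma adjusted p = 0.585 and 0.766). In the authors' deposited table, Hsp26 had log2 ratios of 0.4, 0.6 and 0.7 in the 3 pairs, with an increase call in pairs 2 and 3 and no change call in pair 1.

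Hsp27, a second small heat shock protein of the same cluster, had a smaller and less even difference. It read 1827, 1966 and 1503 in 6xbcd embryos, against 1325, 1137 and 1584 in 2xbcd embryos. The groups overlapped, since 2xbcd replicate 3 was above 6xbcd replicate 3. The mean signal was 1765 ± 238 in 6xbcd embryos, against 1349 ± 225 in 2xbcd embryos (SD, n = 3 each). The log2 change was 0.39 (SE 0.159, 95% interval -0.0092 to 0.79, limma adjusted p = 0.343). Per pair the log2 difference was 0.46, 0.78 and -0.076. This result turned on single pairs. Without pair 2 the log2 change was 0.19 (limma adjusted p = 0.744). With pair 3 left out, the log2 change was 0.62 and passed the test (limma adjusted p = 0.00666). In that fit 2.66% of all tested probe sets were called, against 1.32% with all arrays. Removing 6xbcd replicate 3 alone or 2xbcd replicate 3 alone from the paired fit gave the same log2 change (limma adjusted p = 0.0035 and 0.0075). These fits rest on the same pairs and are not separate results. In the unpaired fit neither removal brought a call (log2 changes of 0.50 and 0.51, limma adjusted p = 0.411 and 0.315). The authors' deposited table gave Hsp27 log2 ratios of 0.2, 0.5 and 0.1 with an increase call in pair 2 only, so that its ratio for pair 3 was positive where the signals differed by -0.076 on the log2 scale.

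Gene order on 3L places the small heat shock genes next to each other as Hsp67Bc, CG4456, Hsp22, CG4461, Hsp26, Hsp67Ba, Hsp23 and Hsp27. Only Hsp26 and Hsp27 of this cluster were tested. The nearest tested genes outside it were Fdx1, a ferredoxin gene, with a log2 change of 0.0010 (SE 0.170), and CG4080 on the other side, with -0.10 (SE 0.0938). Farther out lay CG4452 at 0.16, mRRF1, a mitochondrial ribosome recycling factor, at 0.14, and eIF4E1, the cap-binding translation factor, at 0.06. Beyond mRRF1 lay Klp67A at 0.11. None of these genes passed (limma adjusted p from 0.276 to 0.999). CG4452, mRRF1 and Klp67A were higher in all 3 pairs, as Hsp26 was, against 19.7% of tested probe sets. Fdx1, CG4080 and eIF4E1 were higher in 1, 0 and 2 pairs.

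**Figure D2:**
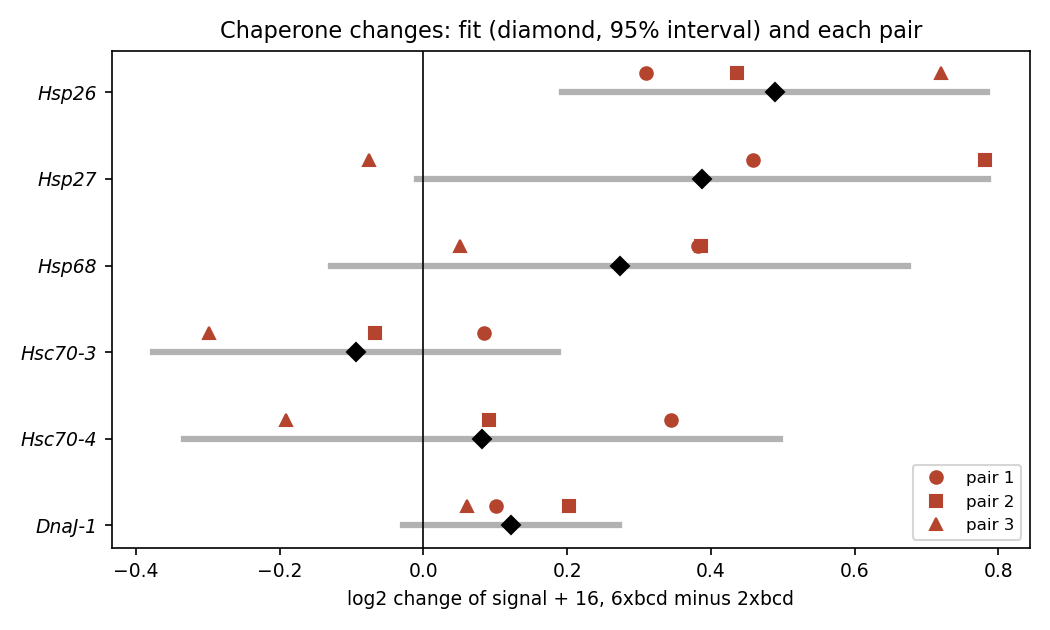
Log2 change of signal + 16, 6xbcd minus 2xbcd (horizontal axis), of each chaperone gene; diamonds are the paired limma estimates, grey bars their 95% intervals, and red markers the 3 pairs of arrays. The interval of Hsp26 lies above 0, and those of the other 5 genes include 0.

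Among the Hsp70 family members, Hsp68 is a heat-inducible cytosolic protein. Its signal was 171, 222 and 210 in 6xbcd embryos, against 127, 166 and 202 in 2xbcd embryos. Each 6xbcd array exceeded the 2xbcd array of its number, but the groups overlapped because 6xbcd replicate 1 was below 2xbcd replicate 3. The log2 change was 0.27 (SE 0.161, 95% interval -0.13 to 0.67, limma adjusted p = 0.484), with 0.38, 0.39 and 0.051 in the 3 pairs. Single 2xbcd arrays moved this value: in the unpaired fit it was 0.11 without 2xbcd replicate 1, 0.42 without 2xbcd replicate 3 and 0.59 without 2xbcd replicates 2 and 3 (limma adjusted p = 0.833, 0.766 and 0.692). The authors' deposited table called no change for Hsp68 in any pair.

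Hsc70-4, the constitutive cytosolic Hsp70 that also uncoats clathrin vesicles, read 33591, 30856 and 23295 in 6xbcd embryos, against 26453, 28972 and 26602 in 2xbcd embryos. Both the highest and the lowest of its 6 values belonged to 6xbcd arrays. Hsc70-4 averaged 29247 ± 5333 in 6xbcd embryos, against 27342 ± 1413 in 2xbcd embryos (SD, n = 3 each). Its log2 change was 0.081 (SE 0.166, 95% interval -0.33 to 0.50, limma adjusted p = 0.861), and the pairs gave 0.34, 0.091 and -0.19. Without pair 1 the log2 change had the other sign, at -0.050. After quantile normalization of the arrays the log2 change of Hsc70-4 was 0.029, with a smaller SE of 0.0382 (limma adjusted p = 0.755). The spread of its signals thus depended on the scaling of the arrays. An increase call was made for it in pair 1 only in the authors' deposited table.

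Hsc70-3, known as BiP, is the Hsp70 of the endoplasmic reticulum and the only X-linked gene of the 6. It read 13777, 14017 and 11741 in 6xbcd embryos, against 12999, 14687 and 14450 in 2xbcd embryos. It was the only one of the 6 with a lower mean in 6xbcd embryos, 13178 ± 1251, against 14045 ± 914 in 2xbcd embryos (SD, n = 3 each). The groups overlapped, and the lowest value was that of 6xbcd replicate 3. Its log2 change was -0.094 (SE 0.113, 95% interval -0.38 to 0.19, limma adjusted p = 0.743), with 0.084, -0.067 and -0.30 in the 3 pairs. Without pair 3 the log2 change was 0.0083. After quantile normalization of the arrays it was -0.078, with a smaller SE of 0.0372 (limma adjusted p = 0.384). A decrease in pair 3 was the one call for Hsc70-3 in the authors' deposited table.

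DnaJ-1, a DnaJ partner of Hsp70 also called Hsp40, varied the least of the 6. Its signal was 3647, 3776 and 3898 in 6xbcd embryos, against 3399, 3278 and 3737 in 2xbcd embryos. The 6xbcd value was higher in each pair, and the groups overlapped at 2xbcd replicate 3. DnaJ-1 averaged 3773 ± 126 in 6xbcd embryos, against 3471 ± 238 in 2xbcd embryos (SD, n = 3 each). Its log2 change was 0.12 (SE 0.0604, 95% interval -0.029 to 0.27, limma adjusted p = 0.420). The authors' deposited table called no change for DnaJ-1 in any pair. Over the 6 genes and 3 pairs it held 18 calls, of which 4 were increases, 1 was a decrease and 13 were no change. The shares of these calls over all probe sets were not counted here, so the counts have no background beside them.

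On the deposited scaling the 6 genes did not rank the arrays alike. Their spans and ranks after quantile normalization were not taken. From the highest to the lowest array, the log2 values spanned 0.80 for Hsp26, 0.78 for Hsp27 and 0.74 for Hsp68, and 0.53 for Hsc70-4, 0.32 for Hsc70-3 and 0.25 for DnaJ-1, where the median of all tested probe sets was 0.496. Hsp26, Hsp27, Hsp68 and Hsc70-4 thus spanned more than this median, and Hsc70-3 and DnaJ-1 less. The highest array was 6xbcd replicate 1 for Hsp26 and Hsc70-4, 6xbcd replicate 2 for Hsp27 and Hsp68, 6xbcd replicate 3 for DnaJ-1 and 2xbcd replicate 2 for Hsc70-3. The lowest was 2xbcd replicate 3 for Hsp26, 2xbcd replicate 2 for Hsp27 and DnaJ-1, 2xbcd replicate 1 for Hsp68, and 6xbcd replicate 3 for both Hsc70 genes.

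**Figure D3:**
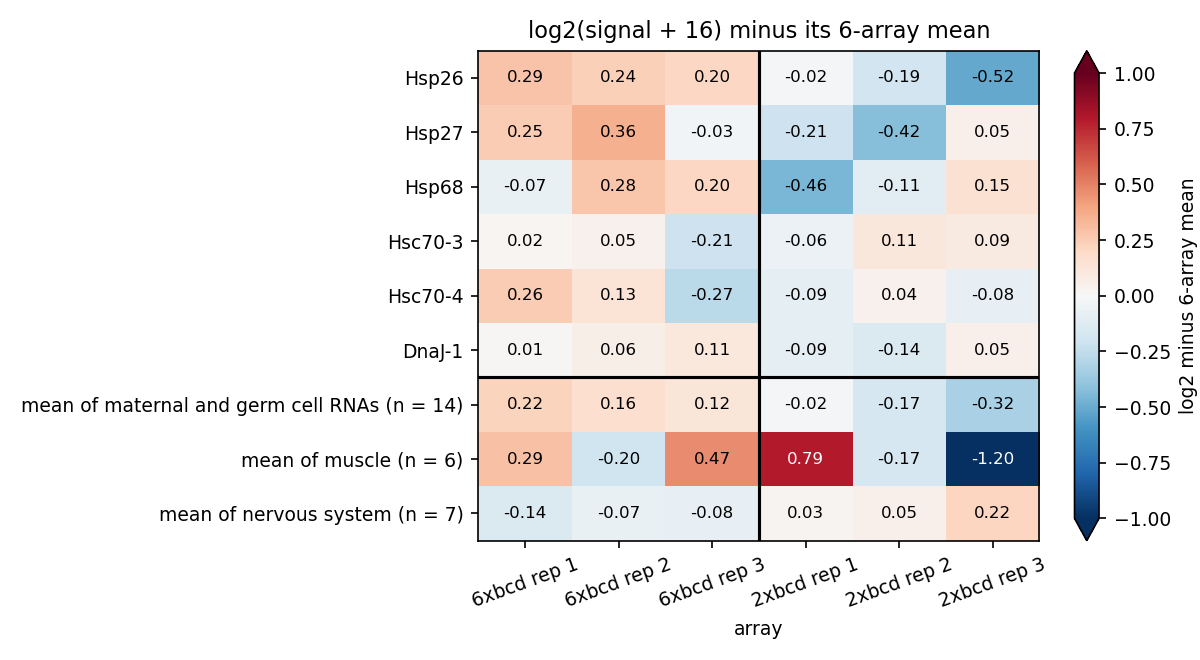
Deviation of log2(signal + 16) from its mean over the 6 arrays (colour and printed value) for each chaperone gene, and below the line for the mean of 3 marker lists; columns are the 3 arrays of 6xbcd and the 3 of 2xbcd embryos, and the colour scale stops at -1 and 1. Hsp26 and the maternal and germ cell list have their lowest value on 2xbcd replicate 3, at -0.52 and -0.32.

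Hsp26 varied over the arrays in the order of the mean of the maternal and germ cell RNAs, an order that bcd had too. Single genes of the list did not all have it, and swa and aub were among those that did not. Hsp27, also loaded into the egg, did not have it. Relative to its 6-array mean Hsp27 lay at 0.049 on 2xbcd replicate 3, above -0.027 on 6xbcd replicate 3. The share of tested probe sets with this order was not counted. Relative to its own mean, Hsp26 lay at 0.29, 0.24 and 0.20 on the 6xbcd arrays, and at -0.023, -0.19 and -0.52 on the 2xbcd arrays. The mean log2 value of 14 tested maternal and germ cell genes lay at 0.22, 0.16 and 0.12 on the 6xbcd arrays, and at -0.019, -0.17 and -0.32 on the 2xbcd arrays. In this list 10 of 14 genes had a positive log2 change, against 52.7% of tested probe sets, with a median of 0.26. None passed an adjusted p of 0.05 in limma, and 5 were higher and 1 lower at an unadjusted p of 0.05, against 14.9% of tested probe sets in either direction. Its mean log2 level ranged from 8.75 to 8.85 on the 6xbcd arrays and from 8.30 to 8.61 on the 2xbcd arrays. Of its members, aub, a germline Piwi protein, had a log2 change of 0.43 and swa, a factor of bcd RNA localisation, of 0.72 (limma adjusted p = 0.152 and 0.138). By contrast stau, an RNA-binding protein of bcd and osk localisation, had -0.27 (limma adjusted p = 0.165), with every 6xbcd array below every 2xbcd array. The kinase gene png, of egg activation, read 74.7, 80.0 and 57.8 in 6xbcd embryos, against 19.2, 1.7 and 25.8 in 2xbcd embryos. It was called absent on all 3 2xbcd arrays and entered the test through the 6xbcd arrays, so no fold is given for it. The counts of 10 positive and 5 higher genes, the median and the levels above include png, and so carry this effect of the filter. Without png the mean of the other 13 genes lay at 0.17, 0.11 and 0.090 on the 6xbcd arrays, and at 0.020, -0.065 and -0.33 on the 2xbcd arrays, in the same order. Their mean log2 level ranged from 8.94 to 9.03 on the 6xbcd arrays and from 8.53 to 8.87 on the 2xbcd arrays. The part of maternal RNA in the Hsp26 difference was not tested.

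The genes whose arrays came nearest to those of Hsp26 were sought among 8802 named probe sets, by the root mean square difference of centred log2 values over 6 arrays. They were Nepl3, of the neprilysin-like family, at 0.0285, Dic1, a mitochondrial dicarboxylate carrier, at 0.0612, and Gtpx at 0.0636. Nepl3 was dim and read 92.5, 90.2 and 87.7 in 6xbcd embryos, against 68.3, 63.2 and 47.5 in 2xbcd embryos. Gtpx, with a log2 change of 0.49, passed over all probe sets (limma adjusted p = 0.042). Nepl3 and Dic1, with 0.50 and 0.48, did not (limma adjusted p = 0.34 and 0.10). Of the chaperones, DnaJ-1 at 0.271 and Hsp27 at 0.281 were the nearest to Hsp26, and 1922nd and 2203rd in that order. These distances rest on 6 arrays and were not tested.

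The other chaperones of the fly were followed in 7 lists of 79 gene names, of which 49 genes were tested. None passed an adjusted p of 0.05 in limma, 32 had a positive and 17 a negative log2 change, and the median was 0.05. At an unadjusted p of 0.05, 5 were higher and 2 lower in 6xbcd embryos, together 7 of 49, against 14.9% of tested probe sets. The arrays of the groups did not overlap for 5 of 49, against 16.1% of tested probe sets. All 6xbcd arrays were above all 2xbcd arrays for 2 of these, against 7.38%, and below them for 3, against 8.68%.

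**Figure D4:**
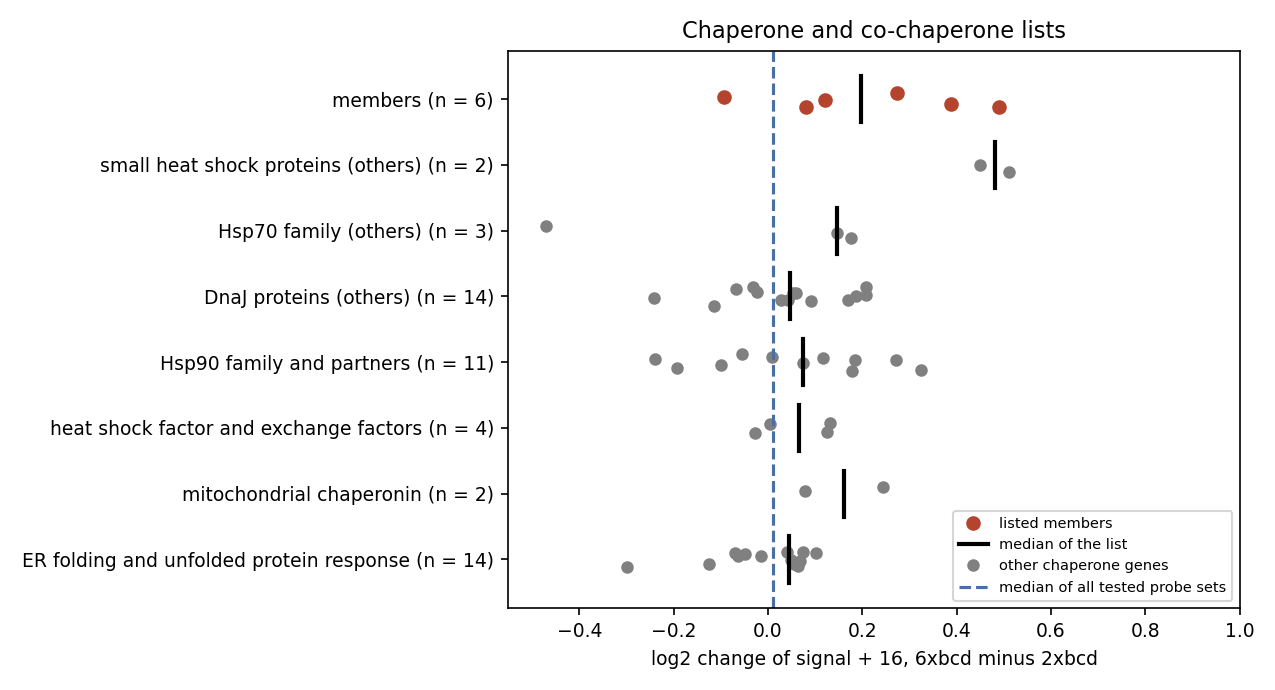
Log2 change of signal + 16, 6xbcd minus 2xbcd (horizontal axis), for the 6 chaperone genes (red) and for the tested genes of 7 chaperone lists (grey); black bars are list medians and the dashed line is the median of all 10137 tested probe sets. The members have a median of 0.20, and the lists of 14 DnaJ proteins and 14 endoplasmic reticulum genes have medians of 0.05 and 0.04.

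Only 2 other small heat shock genes were tested. The gene l(2)efl read 1457, 877 and 1195 in 6xbcd embryos, against 1798, 619 and 526 in 2xbcd embryos, and CG7409 read 105, 47.2 and 158 in 6xbcd embryos, against 145, 75.0 and 15.4 in 2xbcd embryos. Their log2 changes were 0.45 (SE 0.260) and 0.51 (SE 0.617), with limma adjusted p of 0.477 and 0.746. A second probe set of l(2)efl had a log2 change of 0.21 (SE 0.219). Both genes were highest on 2xbcd replicate 1 or 6xbcd replicate 3 and lowest on 2xbcd replicate 3. The mean log2 value of 6 muscle genes was also highest on 2xbcd replicate 1 and lowest on 2xbcd replicate 3, ranging from 10.30 to 10.97 on the 6xbcd arrays and from 9.30 to 11.29 on the 2xbcd arrays. Hsp26 and Hsp27 did not have this order, and the part of muscle in the values of l(2)efl and CG7409 was not tested.

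In the Hsp70 family 3 further genes were tested, with 2 positive changes and none past the threshold. Hsp110, a nucleotide exchange factor for Hsp70, had a log2 change of 0.15 and was higher in all 3 pairs, and Hsc70-5, the mitochondrial Hsp70, had 0.18. Hsc70-1 was dim, with 0 present calls on 6xbcd arrays and 3 on 2xbcd arrays. This probe set thus entered the test through the 2xbcd arrays, so no fold is given for it. It read 63.1, 81.4 and 29.6 in 6xbcd embryos, against 104.7, 63.2 and 81.7 in 2xbcd embryos. It is counted among the 49 tested genes and the 17 with a negative change. The other 2 tested probe sets of Hsc70-1 had log2 changes of -0.23 and -0.19. The limma adjusted p values of Hsp110 and Hsc70-5 were 0.350 and 0.473. The Hsp70Aa to Hsp70Bc genes share probe sets with each other and were not analysed here.

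DnaJ proteins had 14 tested genes, 9 with a positive and 5 with a negative change, and 0 called. Droj2 read 6035, 6099 and 5692 in 6xbcd embryos, against 5023, 5322 and 5301 in 2xbcd embryos, with all 6xbcd arrays above all 2xbcd arrays and a log2 change of 0.19 (limma adjusted p = 0.295). For mrj the log2 change was -0.24 (SE 0.0561, limma adjusted p = 0.150), and it was lower in all 3 pairs although the groups overlapped. Csp, the cysteine string protein of synaptic vesicles, had -0.12 and no overlap between groups (limma adjusted p = 0.417). The groups of Csp nearly touched, at 3074.5 on 6xbcd replicate 1 and 3075.4 on 2xbcd replicate 2.

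Hsp90 itself, encoded by Hsp83, was not analysed, but 11 genes of its family and partners were, with 7 positive changes and 0 called. Fkbp59, an immunophilin that binds Hsp90, had the smallest p of all 49 genes. It read 1091, 1056 and 1041 in 6xbcd embryos, against 862, 785 and 894 in 2xbcd embryos, so that the groups did not overlap. Its log2 change was 0.32 (SE 0.0706, limma adjusted p = 0.132), smaller than that of Hsp26. STUB1, a ubiquitin ligase that binds chaperones, had 0.27, and Sgt1, an Hsp90 co-chaperone, had -0.19 (limma adjusted p = 0.317 for both). Stip1, which links Hsp70 to Hsp90, had 0.18, and Trap1, the mitochondrial Hsp90, had 0.19.

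Hsf, the transcription factor of the heat shock response, read 1679, 1991 and 1985 in 6xbcd embryos, against 1551, 1731 and 1902 in 2xbcd embryos. It was higher in all 3 pairs with overlapping groups and a log2 change of 0.13 (SE 0.0579, limma adjusted p = 0.391). The exchange factor stv, a BAG protein, had 0.13, and Roe1, the mitochondrial GrpE, had 0.0049 (limma adjusted p = 0.803 and 0.987). Of the mitochondrial chaperonin, Hsp60A had 0.24 and its co-chaperonin CG11267 had 0.079 (limma adjusted p = 0.241 and 0.782).

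In the endoplasmic reticulum, where Hsc70-3 works, 14 genes of folding and of the unfolded protein response were tested and 0 called. Their log2 changes had a median of 0.04, with 8 positive and 6 negative. The lowest, -0.30, was that of Pdi, a protein disulfide isomerase, whose probe set read only 16.6, 6.7 and 15.4 in 6xbcd embryos, against 17.3, 20.6 and 19.5 in 2xbcd embryos (limma adjusted p = 0.633). The others lay between -0.12 and 0.10. Herp, of the degradation machinery, had -0.12 without overlap of the groups (limma adjusted p = 0.365). PEK, a kinase of the unfolded protein response, had 0.10, and Gp93, the Hsp90 of this compartment, had 0.074 (limma adjusted p = 0.480 and 0.709).

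Small heat shock genes of flies also answer to the moulting hormone ecdysone in later stages, so its response genes were set beside them. Of 11 tested, 5 had a positive and 6 a negative log2 change, with a median of -0.03 and 0 called. Hr39, a nuclear receptor, had -0.34, and ftz-f1, another nuclear receptor, had 0.25 (limma adjusted p = 0.113 and 0.290). The mean log2 level of the list ranged from 9.04 to 9.45 on the 6xbcd arrays and from 9.29 to 9.34 on the 2xbcd arrays.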

How the data were processed

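Scans were processed by the authors in GCOS, as the submitters' processing notes name it without a version. Signals were deposited as linear intensity, scaled so that the mean of each array, trimmed by 2% per end, was 500.0. Per the file headers, the authors added detection calls and, for each pair of arrays, their log2 ratio, their call of change and its p-value. The number of arrays limits the precision.

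Genes were named from the array annotation of 2016, where 13646 probe sets had 1 symbol and 402 several, and names and gene order came from RefSeq genes of Release 6 plus ISO1 MT. Probe sets called present on 3 or more of the 6 arrays were tested (10137) with limma 3.58.1 in R 4.3.3, as log2(signal + 16), with an intensity trend, the replicate number as a block, two-sided, Benjamini-Hochberg adjusted over all tested probe sets. Folds on this scale understate the change of dim probe sets. The design text states independent RNA samples and calls the arrays paired; deviations of same-numbered arrays correlated at 0.437, 0.385 and -0.19 across probe sets, and those of differently numbered arrays at -0.629 to 0.422, so the pairing rests on the design text and not on these values. Cross-hybridisation between related chaperones was not tested.

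The members and lists were chosen with earlier results of these data known. Named genes are all members, bcd, list genes past the threshold or up to 3 per list with the smallest p, and the 3 nearest to Hsp26. Stip1, Trap1, Gp93, Roe1, osk, stau, lz, the neighbours of the cluster and the tissue markers named as detected were named outside this rule. In lists, the brightest probe set stood for a gene. Alternatives were no block, other scalings, offsets of 1 and 64, other filters, no trend, a threshold of 0.1, pairs or arrays left out, and the main axis as covariate.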

Additional observations from a re-analysis of the deposited data

How the results depend on the processing

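None of the 6 chaperone probe sets was called at the threshold under 24 of the settings tried, and 1, Hsp27, under the 3 that took replicate 3, or 1 of its arrays, out of the paired fit, so that the count ranged from 0 to 1. Without replicate 3, without its 6xbcd array and without its 2xbcd array, 2.66%, 3.02% and 2.52% of all tested probe sets were called. In the main fit 1.32% were. No gene of the other chaperone lists was called under any of the settings tried. The ecdysone, maternal and tissue marker lists were not counted under them. Without the replicate block (pairing) the log2 changes were the same and the adjusted p was 0.287 for Hsp26 and 0.432 for Hsp27; it changed no call of these genes. With the main axis as covariate Hsp26 had 0.35, Hsp27 0.48 and Hsp68 0.49, with no call. Hsp26 kept a positive change under every setting, from 0.27 to 0.60 (adjusted p from 0.12 to 0.766). With a pair or an array left out, the log2 change of Hsp27 ran from 0.19 to 0.62, that of Hsp68 from 0.11 to 0.42 and that of DnaJ-1 from 0.081 to 0.18. That of Hsc70-4 ran from -0.050 (without replicate 1 or either of its arrays) to 0.22 in the paired fit, and from -0.027 (without 6xbcd replicate 1) to 0.24 (without 6xbcd replicate 3) in the unpaired fit. That of Hsc70-3 ran from -0.18 to 0.0083 (without replicate 3 or either of its arrays), and was 0.015 in the unpaired fit without 2xbcd replicates 2 and 3. Over all probe sets, the 134 calls became 5 without the intensity trend, 247 at a threshold of 0.1, 10 to 270 with a pair left out, 5 to 306 with an array left out, in the unpaired fit 38, 23 and 32 without 6xbcd replicates 1, 2 and 3 and 88, 25 and 36 without 2xbcd replicates 1, 2 and 3, and 15 without 2xbcd replicates 2 and 3. The unpaired fits with arrays left out were chosen after seeing the data, and where 1 array of a group was left it was assumed to vary like the other group. In the paired fit an array left out takes its partner out of the change. The promoter motifs were not run. CG7409, Hsc70-1, Pdi, png, lz and Nepl3 were dim, which limits what their signals show.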

Other observations

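Marker lists of other tissues were read from the same fit, where 52.7% of all tested probe sets had a positive log2 change. Muscle had 6 tested genes, 5 with a positive log2 change, a median of 0.43 and 0 called. In the nervous system all 7 tested genes had a negative change, with a median of -0.21 and 0 called. Of 6 tracheal genes 1 was positive (median -0.22, 0 called), and of 5 epidermal genes 4 were (median 0.08, 0 called). Blood cells had 9 tested genes, of which PPO1 and PPO2, prophenoloxidases of crystal cells, were called higher, with log2 changes of 1.09 and 0.98 (limma adjusted p = 0.0221 and 0.0224). Of all tested probe sets 0.75% were called higher. The crystal cell gene lz of this list had 0.29 with overlapping groups (limma adjusted p = 0.644). It was dim, at 53.8, 38.8 and 39.3 in 6xbcd embryos, against 32.1, 22.7 and 46.8 in 2xbcd embryos. The mean log2 level of the blood list ranged from 10.26 to 10.36 on the 6xbcd arrays and from 9.70 to 10.09 on the 2xbcd arrays. This mean includes PPO1 and PPO2 and was not taken without them. They were the only 2 of the 9 genes whose groups did not overlap, against 16.1% of tested probe sets.

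Among maternal RNAs, osk, the germ plasm organiser, read higher in all 6xbcd arrays than in all 2xbcd arrays, by 0.63 on the log2 scale (limma adjusted p = 0.363). Its other 2 probe sets had 0.64 and 0.67.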
